A study of Mus musculus with 4 samples.

Results

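The red cell membrane skeleton genes were taken as a set of 9: Sptb, Ank1, Slc4a1, Epb42, Epb41, Add1, Add2, Dmtn and Tmod1. Every probe set annotated to 1 of these genes alone was kept, which gave 23 probe sets for 8 genes, out of 45037 probe sets and 18193 genes tested in all. Epb41, the gene of protein 4.1R, had no probe set under this rule and was not analysed here. The labels describe LSK cells, the bone marrow progenitors that carry c-Kit and Sca1 and lack lineage markers, from femurs of mice called wild-type on a B6/129 background. Sorting by the level of c-Myc-eGFP protein gave the cells called Hi and those called Lo, with 2 arrays for each (replicates 1 and 2) and no treatment or age given. Both groups carry the c-Myc-eGFP fusion, and its promoter or allele and the number of animals behind an array are not given in the sources used here. Nothing says that the replicates came from separate mice, so the p-values measure the spread between these arrays, which may be technical.

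The membrane skeleton is the protein net beneath the lipid bilayer that lets a red cell bend in capillaries and regain its shape. Long spectrin tetramers form its strands. At one kind of node, ankyrin ties beta spectrin to band 3, the anion exchanger, with protein 4.2 at their contact. At the other, the spectrin ends meet a short actin filament that is held by protein 4.1R, the adducins and dematin and capped by tropomodulin. Inherited defects of spectrin, ankyrin, band 3 and protein 4.2 are known causes of hereditary spherocytosis. Most of these proteins accumulate late in erythroid maturation, long after the LSK stage, while alpha adducin is made in many tissues. The question put to the data was which of these genes had transcript levels that went with the c-Myc protein level among LSK cells.

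Among the members, Ank1, Add2 and Sptb had the largest differences. The brightest probe set of Ank1 was 6.32-fold higher in Hi than in Lo, that of Add2 3.29-fold and that of Sptb 2.71-fold, and in none of these did a Lo array reach a Hi array. In bulk samples fewer cells of a type and less RNA per cell cannot be told apart. Slc4a1, Add1 and Tmod1 lay close to equal in both groups, and Epb42 was under the dim limit, the level of control probe sets for bacterial transcripts, on all 4 arrays. None of these differences passed the test. By limma, with Benjamini-Hochberg adjustment over all probe sets, 0 of the 23 member probe sets were past an adjusted p of 0.05, against 0% of all 45037, where the smallest adjusted p was 0.0839. At an unadjusted p under 0.05, 9 member probe sets were higher in Hi and 0 lower, against 9.05% of all probe sets higher and 8.91% lower. These 9 were 5 of Add2, 2 of Ank1, 1 of Sptb and 1 of Epb42. Probe sets of a gene share its transcripts, so the 9 are not separate results. The ordinary test without moderation also called 0 member probe sets, against 0 higher and 1 lower among all 45037. The Hi arrays both exceeded the Lo arrays in 14 of the 23 and both fell short of them in 1, against 29.3% and 22% of all probe sets.

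**Figure D1:**
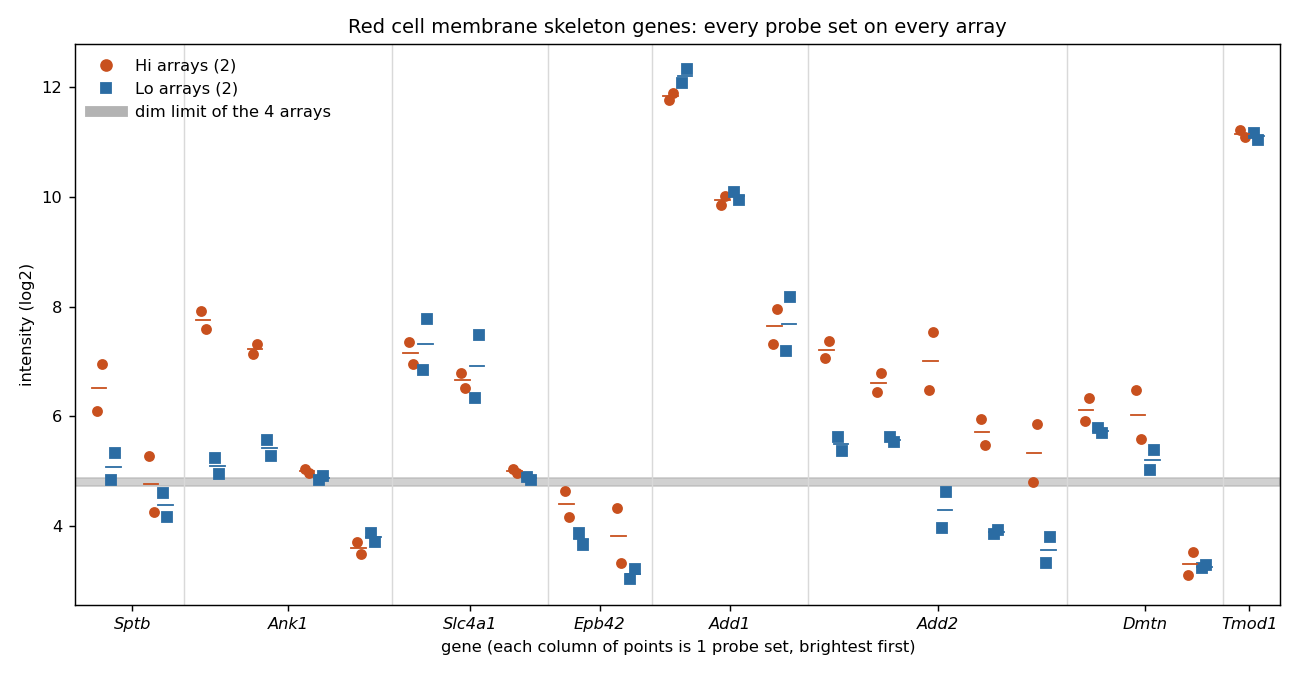
Intensity on the log2 scale (vertical axis) of the 23 member probe sets on the 2 Hi arrays (circles) and the 2 Lo arrays (squares), grouped by gene, with short lines at the group means and a grey band over the dim limits of the 4 arrays. Hi and Lo points are apart for all 5 probe sets of Add2 and for the 2 brightest of Ank1, and they lie together for Tmod1.

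The arrays and their labels bear on these values as follows. Over probe sets, Pearson's r between log2 intensities was 0.990 for the Hi pair, 0.983 for the Lo pair and 0.972 to 0.976 for pairs of a Hi with a Lo array. The dim limit was 4.87 and 4.86 on the Hi arrays and 4.74 and 4.78 on the Lo arrays on the log2 scale. The Myc transcript itself had a log2 intensity of 12.41 and 12.41 on the Hi arrays and 11.70 and 10.64 on the Lo arrays, a 2.37-fold higher level in Hi (adjusted p = 0.241 by limma). Kit, the gene of c-Kit, was bright on every array, between 11.39 and 11.95, and Ly6a, the gene of Sca1, was not analysed here. As a sign of RNA quality, the excess of the 3′ over the 5′ control probe sets of Gapdh on the log2 scale ran from 0.63 to 0.65 over the Hi arrays and from 0.74 to 0.78 over the Lo arrays. For Actb it ran from 0.55 to 0.60 over the Hi arrays and from 0.57 to 0.84 over the Lo arrays. The part of RNA quality in the differences below was not tested.

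In the ankyrin complex, Sptb encodes beta spectrin, the chain that carries the ankyrin binding site (chromosome 12, 76580488 to 76710547 in GRCm38.p6). Its brighter probe set, 1450556_at, had log2 intensities of 6.09 and 6.96 on the Hi arrays and 4.83 and 5.34 on the Lo arrays. The groups did not overlap, and Hi replicate 2 was the highest. The Lo mean lay only 0.33 above the dim limit. The difference was 1.44 ± 0.38 (SE) on the log2 scale (adjusted p = 0.191 by limma). It was 1.88 without Hi replicate 1 and 1.0 without Hi replicate 2. The second probe set, 1455226_at, had 5.27 and 4.26 in Hi and 4.61 and 4.17 in Lo, with overlap of the groups. Both Lo arrays and Hi replicate 2 were under the dim limit there, so no size of a difference is read from this probe set.

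Ank1 encodes the erythroid ankyrin and has shorter forms in muscle (chromosome 8, 22974836 to 23150501). Of its 4 probe sets, 2 were clear of the dim limit in Hi and the other 2 were close to it or under it in both groups. The brightest, 1419421_at, had log2 intensities of 7.92 and 7.60 on the Hi arrays and 5.24 and 4.96 on the Lo arrays, so the groups were far apart and the replicates close. The difference was 2.66 ± 0.20 (SE; adjusted p = 0.0839 by limma). That adjusted p was the smallest over all probe sets, but several shared it. Among them that of Rhag had a smaller unadjusted p by limma, 0.000105 against 0.000188 for 1419421_at. The Lo mean of 1419421_at lay 0.34 above the dim limit, and leaving out single arrays its difference ran from 2.50 to 2.82. A second probe set, 1425677_a_at, had 7.13 and 7.32 in Hi and 5.56 and 5.28 in Lo, a difference of 1.80 ± 0.18 (SE; adjusted p = 0.0846). Both of these thus placed Ank1 higher in Hi on every array.

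The other Ank1 probe sets gave no readable level. 1452512_a_at had 5.04 and 4.97 in Hi and 4.83 and 4.91 in Lo. This probe set lay 0.14 above the dim limit in Hi and 0.11 above it in Lo. The dim limit itself was 0.11 higher in Hi than in Lo, and the 118 probe sets that lay within 0.3 above it on all 4 arrays had a median difference of 0.11. 1443291_at was under the dim limit on all 4 arrays, with 3.72 and 3.50 in Hi and 3.88 and 3.72 in Lo. No level of Ank1 transcript in either group can be read from these dim probe sets.

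To test disagreement among the probe sets of a gene, the log2 value of each was taken relative to the mean of the others on the same array, and Hi was compared with Lo for all 25762 probe sets of genes with 2 or more. By limma 0 of the 22 member probe sets in this test passed an adjusted p of 0.05, against 0% of all. At an unadjusted p under 0.05 there were 6, against 12.9% of all, namely all 4 of Ank1 and 2 of Add2. The diffSplice function of limma, which counts probe sets on 1 array as independent, called 3 probe sets, all of Ank1, and 0.71% of all. For Ank1 the test sets the 2 readable probe sets against those near or under the dim limit, and 3 of the 5 Add2 probe sets were under it on both Lo arrays. These counts therefore mix signal with background and do not show that transcripts of a gene differed. The readable Ank1 probe sets had the same direction and unlike sizes, at 2.66 and 1.80. So did the Add2 probe sets above the dim limit on all 4 arrays, at 1.72 and 1.04. Disagreement among the readable probe sets alone was not tested.

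Slc4a1 encodes band 3, the chloride and bicarbonate exchanger to which ankyrin binds (chromosome 11, 102348820 to 102365281). Its brightest probe set, 1434502_x_at, had log2 intensities of 7.36 and 6.95 in Hi and 6.85 and 7.77 in Lo. The suffix x marks a probe set with probes that can also match other transcripts. The Lo arrays held both the highest and the lowest value, and the difference was -0.16 ± 0.38 (SE), with a 95% interval from -1.22 to 0.90. 1416464_at had the same order of arrays, with 6.79 and 6.52 in Hi and 6.33 and 7.49 in Lo. Its difference was -0.25 ± 0.44. Both signs rested on single arrays: without Lo replicate 2 they were 0.30 and 0.33, and without Hi replicate 2 that of 1434502_x_at was 0.050. The remaining probe set, 1431743_a_at, lay 0.14 above the dim limit in Hi and 0.11 in Lo and differed by 0.14 ± 0.13. Slc4a1 was thus detected in both groups by its 2 brighter probe sets, with no difference beyond the replicate spread.

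Epb42 encodes protein 4.2, a relative of the transglutaminases that has no enzyme activity (chromosome 2, 121017891 to 121036877). Both of its probe sets were under the dim limit on all 4 arrays. 1417338_at had log2 intensities of 4.64 and 4.17 in Hi and 3.87 and 3.66 in Lo. 1417337_at had 4.33 and 3.32 in Hi and 3.03 and 3.22 in Lo. The Hi arrays stood above the Lo arrays for both, with Hi replicate 1 the highest, but no size of a difference is read from signals at this level. Over all probe sets that were dim on all 4 arrays, 34.9% of those tested, the median difference was 0.07.

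At the junctions with actin, the adducins are known to cap the fast-growing end of the filament and to bring spectrin to it. Alpha adducin, the product of Add1, pairs with the beta subunit from Add2 in red cells and with the gamma subunit from Add3 in most other cells. The stretches of 250 bases before the annotated starts of both adducin genes and of Sptb are shown. Sptb is the other member with a large difference and a listed start. The choice followed the array values, with Add2 higher in Hi and Add1 slightly lower by their brightest probe sets. None of these differences passed the test (adjusted p = 0.0936 for Add2, 0.350 for Add1 and 0.191 for Sptb by limma). Whether a sequence match bears on these levels was not tested. Add2 holds a match to a GATA site (AGATAA or its variant AGATAG, or likewise TGATAA and its variant TGATAG, on either strand) 234 bases before its start, printed in capitals, and Add1 and Sptb hold none. The sequences are from RefSeq, GRCm38.p6, read 5′ to 3′ on the strand of the gene: chr6:86028431-86028680 on the plus strand for Add2, chr5:34573414-34573663 on the plus strand for Add1 and chr12:76710548-76710797 on the minus strand for Sptb.
Add2: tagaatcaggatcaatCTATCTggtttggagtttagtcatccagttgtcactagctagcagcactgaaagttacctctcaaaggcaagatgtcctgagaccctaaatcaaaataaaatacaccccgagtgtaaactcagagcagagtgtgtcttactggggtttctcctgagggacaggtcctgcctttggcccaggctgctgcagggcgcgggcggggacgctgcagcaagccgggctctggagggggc
Add1: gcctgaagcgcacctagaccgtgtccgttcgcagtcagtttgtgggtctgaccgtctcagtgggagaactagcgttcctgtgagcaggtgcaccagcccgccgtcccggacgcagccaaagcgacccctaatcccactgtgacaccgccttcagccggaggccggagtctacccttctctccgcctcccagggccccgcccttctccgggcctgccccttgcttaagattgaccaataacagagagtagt
Sptb: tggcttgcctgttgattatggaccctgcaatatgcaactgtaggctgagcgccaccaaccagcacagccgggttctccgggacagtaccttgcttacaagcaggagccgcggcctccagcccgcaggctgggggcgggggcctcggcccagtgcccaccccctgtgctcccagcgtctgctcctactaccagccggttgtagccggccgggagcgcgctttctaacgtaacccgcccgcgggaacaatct
Of the 8 windows listed for 6 members, 3 held a GATA match (1 of Epb42, 1 of Epb41 and that of Add2), against 26.5% of 32851 windows over all genes. The E-box CACGTG, known as the preferred site of Myc with Max, was in 0 of the 8 and in 6.02% of all. CACACCC, a form of the CACCC box that Klf1 is known to bind, was in 0 of the 8 and in 6.93% of all. A match is a stretch of letters and not a bound site, and windows at other starts of these genes were not searched.

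Add2 (chromosome 6, 86028681 to 86124409) was higher in Hi by all 5 of its probe sets. The brightest, 1421975_a_at, had log2 intensities of 7.07 and 7.37 on the Hi arrays and 5.63 and 5.37 on the Lo arrays. The difference was 1.72 ± 0.19 (SE; adjusted p = 0.0936 by limma), and leaving out single arrays it ran from 1.57 to 1.87. 1451914_a_at had 6.44 and 6.79 in Hi and 5.62 and 5.52 in Lo, a smaller difference of 1.04 ± 0.18 (adjusted p = 0.119). These are the probe sets of Add2 that were above the dim limit on all 4 arrays.

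The other 3 Add2 probe sets were under the dim limit on both Lo arrays. Where both Hi arrays were above it, the fold is a lower bound, the Hi mean over the dim limit of the Lo arrays. 1435287_at had 6.49 and 7.54 in Hi and 3.96 and 4.62 in Lo, at least 4.77-fold higher in Hi (adjusted p = 0.116). 1450442_at had 5.95 and 5.47 in Hi and 3.85 and 3.92 in Lo, at least 1.94-fold higher (adjusted p = 0.0947). 1431076_at had 4.81 and 5.87 in Hi and 3.33 and 3.79 in Lo (adjusted p = 0.173 by limma). The first of its Hi arrays was under the dim limit, so no size of a difference is read. In no Add2 probe set did a Lo array reach a Hi array. Over all probe sets, 29.3% had both Hi arrays above both Lo arrays. The Add2 probe sets share the transcripts of a single gene, so they are not separate results. In the 3 probe sets here the Lo values that were compared lay under the dim limit.

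**Figure D2:**
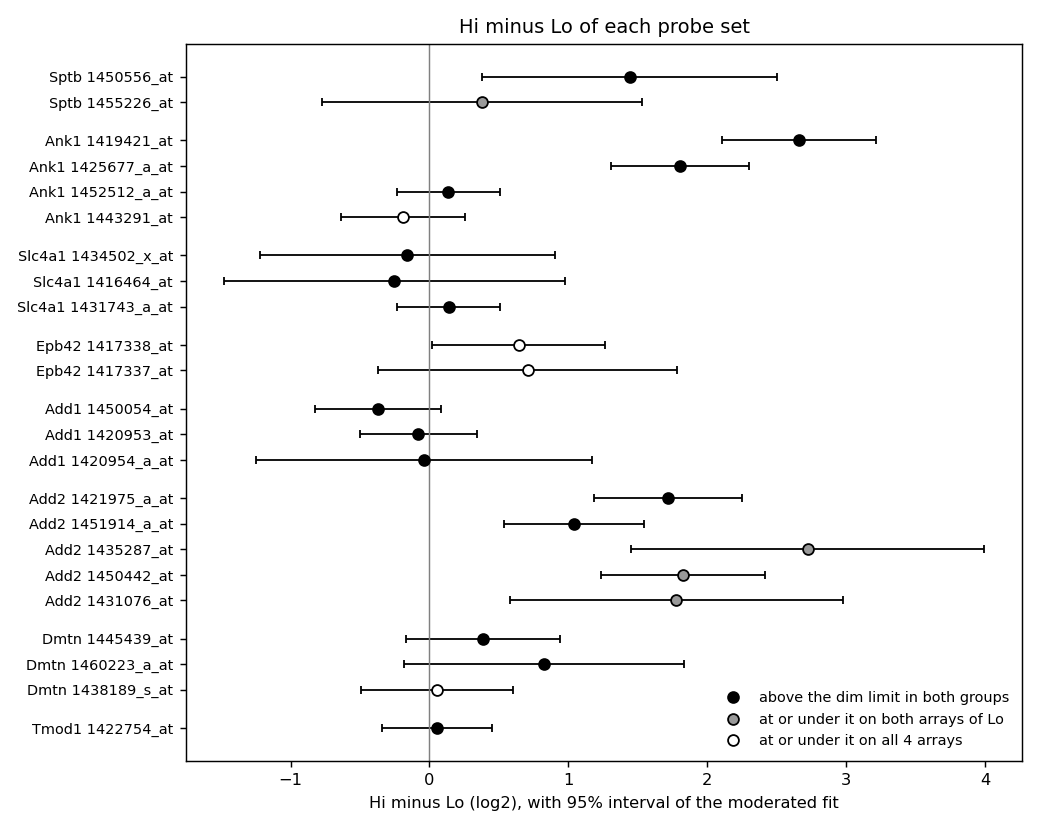
Hi minus Lo on the log2 scale (horizontal axis) for each of the 23 member probe sets, with the 95% interval of the moderated fit, which is not adjusted for the number of probe sets. Filled points were above the dim limit in both groups, grey points were under it on both Lo arrays, and open points were under it on all 4 arrays. All 5 Add2 points lie above 1, while the Ank1 points run from -0.19, under the dim limit, to 2.66.

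Add1 (chromosome 5, 34573664 to 34632308) went the other way by little. 1450054_at had log2 intensities of 11.76 and 11.90 in Hi and 12.08 and 12.32 in Lo, with both Hi arrays below both Lo arrays. The difference was -0.37 ± 0.16 (SE), 1.29-fold lower in Hi, with an adjusted p of 0.350 by limma. 1420953_at had 9.85 and 10.02 in Hi and 10.08 and 9.95 in Lo, a difference of -0.08 ± 0.15. 1420954_a_at had 7.32 and 7.96 in Hi and 7.19 and 8.17 in Lo, a difference of -0.04 ± 0.43, with replicate 2 the higher array in both groups. The groups overlapped in the last 2, and their sign turned after the arrays were shifted to 1 median (0.015 and 0.055).

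On each array the log2 level of Add2 relative to Add1, by their brightest probe sets, came to -4.69 and -4.54 for Hi and to -6.45 and -6.95 for Lo. Only the change of this value between arrays can be read, since it sets a probe set of 1 gene against a probe set of another. It was 2.09 higher in Hi, from 1.83 to 2.34 when single arrays were left out and 1.98 when the probe sets of each gene were averaged. The exact permutation test over the 4 arrays gave p = 0.333 (two-sided), which is the smallest that 2 against 2 arrays allow.

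Dmtn encodes dematin, which bundles actin (chromosome 14, 70602184 to 70636048). 1445439_at had log2 intensities of 5.91 and 6.33 in Hi and 5.78 and 5.70 in Lo, a difference of 0.38 ± 0.20 (SE; adjusted p = 0.409 by limma). 1460223_a_at had 6.47 and 5.59 in Hi and 5.03 and 5.39 in Lo, a difference of 0.82 ± 0.36 (adjusted p = 0.349). The groups did not overlap in either, though the nearest Hi and Lo arrays were close, and Hi replicate 1 stood apart from the rest in 1460223_a_at. Without Hi replicate 1 the difference of 1460223_a_at was 0.38, and without Hi replicate 2 that of 1445439_at was 0.17. 1438189_s_at was under the dim limit on all 4 arrays, at 3.11 and 3.53 in Hi and 3.24 and 3.28 in Lo.

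Tmod1 encodes the erythrocyte tropomodulin, which caps the slow-growing end of the actin filaments and is also known from heart and skeletal muscle (chromosome 4, 46038940 to 46116032). Its single probe set, 1422754_at, had log2 intensities of 11.22 and 11.09 in Hi and 11.16 and 11.04 in Lo. The groups overlapped, and in both of them replicate 1 was the higher. The difference was 0.05 ± 0.14 (SE), with a 95% interval from -0.34 to 0.45, so a change as large as 2-fold lies outside the interval. Without Hi replicate 1 it was -0.011.

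Taken by their brightest probe sets, 6 of the 8 measured members were higher in Hi, against 53.6% of all 18193 genes, and 2 were lower, with a median difference of 0.51 on the log2 scale, against 0.03 over all genes. With an unadjusted p under 0.05, 4 were higher (Ank1, Add2, Sptb and Epb42, the last with all its signals under the dim limit) and 0 lower, against 9.25% and 11% of all genes. In 5 the Hi arrays both exceeded the Lo arrays and in 1 both fell short of them, against 30% and 25.4%. The 4 genes of the ankyrin complex had a median difference of 1.04 and the 4 measured genes of the junctional complex of 0.22. The value of Epb42, under the dim limit, enters the medians of 0.51 and 1.04. With only probe sets above the dim limit on 2 or more arrays, which drops Epb42, they were 0.38 and 1.44. Averaged by complex, the ankyrin genes minus the junctional genes stood 0.70 higher in Hi than in Lo (exact permutation p = 0.333, two-sided, the smallest possible). When the probe sets of each gene were averaged this value was 0.12, so the contrast of the complexes rests on the choice of probe set.

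**Figure D3:**
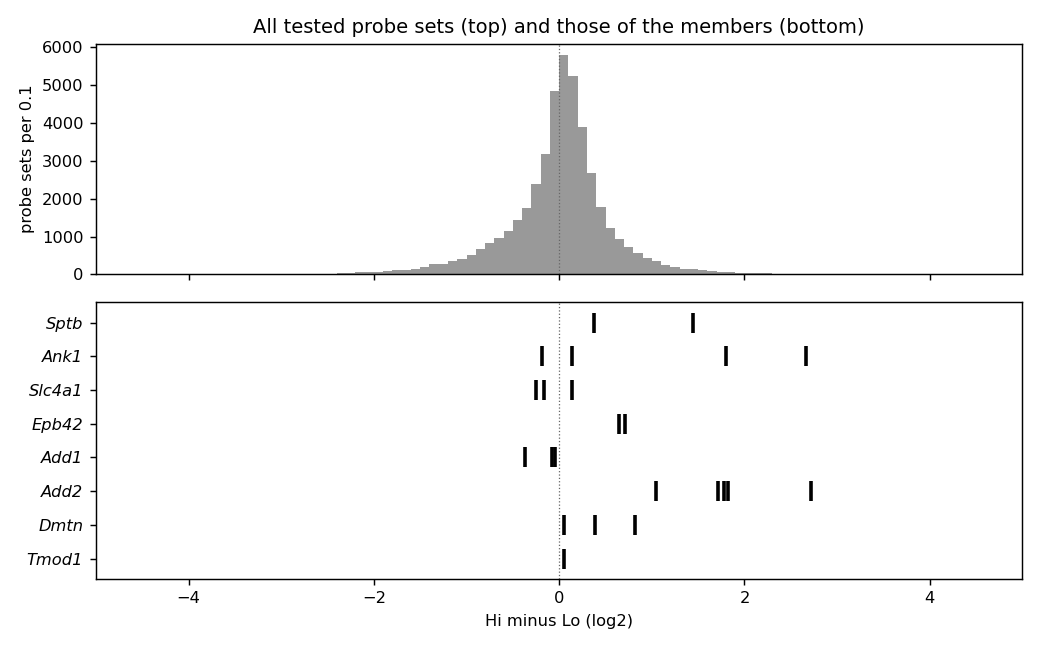
Top, the number of all 45037 probe sets by Hi minus Lo on the log2 scale, in bins of 0.1. Bottom, each tick is a probe set of the named gene on the same axis; the ticks of Add2 and 2 of the 4 ticks of Ank1 lie at 1.04 or above, while those of Add1, Slc4a1 and Tmod1 lie near 0.

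The calls depended on which features were fitted. In an alternative added after the data were seen, only the brightest probe set of each gene was fitted. The differences were the same. Both the moderation and the adjustment of p-values then ran over 18193 features in place of 45037. Ank1 (adjusted p = 0.0385 by limma) and Add2 (adjusted p = 0.0471) passed, among 1.04% of genes called higher and 1.18% called lower. When all probe sets of a gene were averaged, dim ones included, Ank1 (difference 1.10, adjusted p = 0.0409), Add2 (1.82, adjusted p = 0.0371) and Sptb (0.91, adjusted p = 0.0468) passed, among 1.39% of genes called higher and 1.52% called lower. Over the 13 alternatives run for each, the adjusted p ran from 0.0385 to 0.434 for Ank1, from 0.0371 to 0.434 for Add2 and from 0.0468 to 0.469 for Sptb.

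The other genes of the red cell membrane split in the same comparison. Of 17 listed, 15 were measured, with 10 higher and 5 lower in Hi, against 53.6% of all genes higher, and 0 past an adjusted p of 0.05. Their median difference was 0.14, and an unadjusted p under 0.05 was reached by 5 that were higher and 0 that were lower, against 9.25% and 11% of all genes. The Rh proteins, which sit in the ankyrin complex with band 3, had genes among the most different: Rhd at 3.78 ± 0.42 (SE) and Rhag at 3.10 ± 0.20 on the log2 scale (adjusted p = 0.0946 and 0.0839 by limma). Kel, a blood group protein, had 7.16 and 7.69 in Hi and 3.30 and 4.14 in Lo, at least 6.35-fold higher. The water channel gene Aqp1 had a difference of 2.37 ± 0.25. By their brightest probe sets, the other 11 measured genes lay between -0.74 and 0.999. Over all probe sets Stom ran from 0.19 to 1.91, Cd47 from -0.26 to 1.39 and Mpp1 from -0.072 to 1.11.

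The paralogues of the members outside the red cell lay near equal on balance. Of 15 listed, 14 were measured, with 6 higher and 8 lower by brightest probe set, against 53.6% of all genes higher. Past an adjusted p of 0.05 there were 0. At an unadjusted p under 0.05 there were 0 in either direction, against 9.25% of all genes higher and 11% lower. The median difference of the 14 was -0.12, or 0.035 without Lo replicate 2. By brightest probe set the largest belonged to Epb41l3, a relative of protein 4.1R, at 1.07 ± 0.56 (SE). This probe set had 8.41 and 8.35 in Hi and 8.08 and 6.55 in Lo. All 3 probe sets of Epb41l3 ran from -0.12 to 1.07. Probe sets of Sptbn1 ran from -1.65 to 0.58, those of Ank3 from -1.49 to 0.61 and those of Tmod3 from -1.02 to 0.061. Sptbn4, a beta spectrin known from neurons, had -0.53 ± 0.49, with 1 array of each group under the dim limit. Slc4a3, an anion exchanger, was under it on both Lo arrays and 1 Hi array, with the groups overlapping, so no size of a difference is read. Sptan1, a spectrin gene of most cells, had -0.42 ± 0.20.

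**Figure D4:**
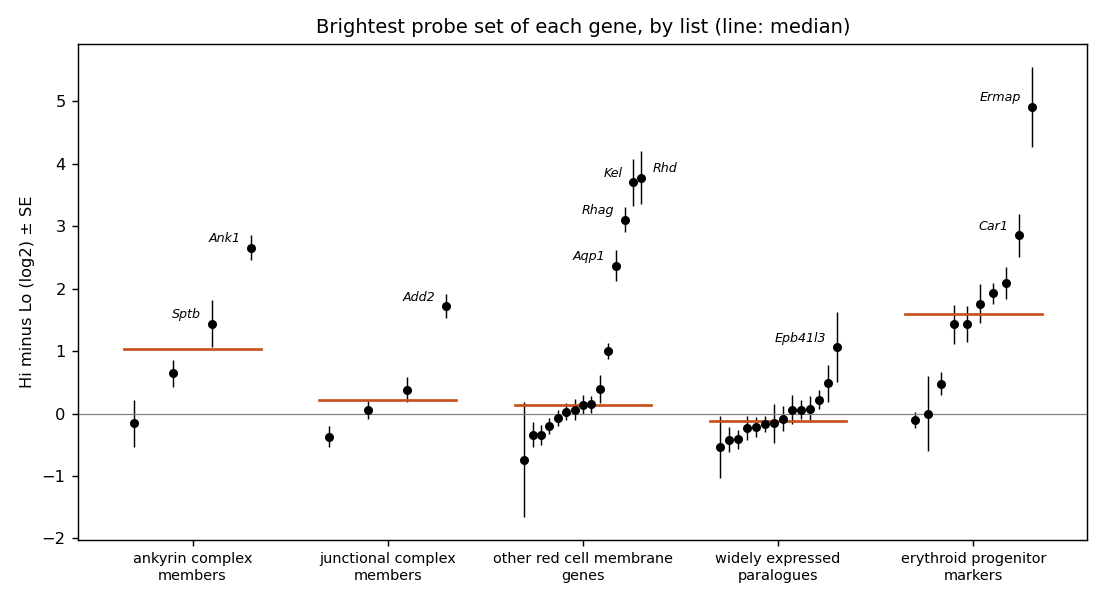
Hi minus Lo on the log2 scale (vertical axis), with the SE of the fit, for the brightest probe set of each measured gene in 5 lists, ordered by value within a list, with a line at the median. The medians are 1.04 for the ankyrin complex, 0.22 for the junctional complex, 0.14 for other membrane genes, -0.12 for the paralogues and 1.60 for erythroid progenitor markers.

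Markers of several progenitor types stood at different levels in the groups beside these genes. Each gene was taken by its brightest probe set, and over all genes 53.6% were higher in Hi. Of 10 erythroid progenitor markers, 8 were higher and 2 lower in Hi, with a median difference of 1.60. At an unadjusted p under 0.05 by limma, 7 were higher and 0 lower, against 9.25% and 11% of all genes. The summed intensity of the 10 was 31076 and 35626 on the Hi arrays and 17135 and 17157 on the Lo arrays. Car2 and Car1, carbonic anhydrase genes and the brightest of the list, differed by -0.11 and 2.85, and Alas2, the erythroid enzyme of haem synthesis, was under the dim limit on all 4 arrays. All 7 granulocyte and monocyte markers were higher in Hi (median 1.0), 5 of them at an unadjusted p under 0.05. Mpo and Prtn3 led in level, with differences of 0.73 and 1.0. The summed intensity of the 7 came to 49792 and 45484 on the Hi arrays and to 18789 and 16918 on the Lo arrays. All 6 long-term stem cell markers were lower (median -1.70), each at an unadjusted p under 0.05, against 11% of all genes. Among them Mecom stood at -0.96 and Hlf at -1.15. The 3 probe sets of Mecom ran from -0.96 to 0.31, so its direction depended on the probe set. The summed intensities of the 6 were 6285 and 6338 in Hi and 16416 and 15228 in Lo.

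Markers of the remaining types went both ways within each list. Of 6 measured megakaryocyte markers, 4 were higher and 2 lower (median 0.37, from -1.03 for Vwf to 0.80 for Gp1bb), with Pf4 at 0.64 and Gp9 at -0.64, and summed intensities of 6707 and 5574 in Hi and 4690 and 5173 in Lo. Of 4 measured B cell markers, 2 were higher and 2 lower (median -0.09, or 0.0051 after the arrays were shifted to 1 median, the lowest -0.79 for Ms4a1), with Cd79b at -0.34 and Cd79a at 0.16, Pax5 under the dim limit on all 4 arrays and summed intensities of 2551 and 2741 in Hi and 3323 and 3360 in Lo. Of 4 measured T cell markers, 1 was higher and 3 lower (median -0.12, or 0.25 without Hi replicate 2, the lowest -1.19 for Cd8a), with Cd4 at 0.35 and Cd3g at -0.15, and summed intensities of 612 and 426 in Hi and 503 and 495 in Lo. At an unadjusted p under 0.05 there were 2 megakaryocyte markers higher and 2 lower, 0 B cell markers, and 1 T cell marker lower (Cd8a). Over all genes 9.25% were higher and 11% lower at that threshold. By limma 0 of these lists' genes passed an adjusted p of 0.05, against 0 of all genes. The part of cell composition in the values of Ank1, Add2 and Sptb was not tested.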

How the data were processed

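LSK cells were profiled on 4 Affymetrix mouse expression arrays, 2 Hi and 2 Lo, after amplification of total RNA with a NuGEN Ovation kit, per the labels' protocols. The authors deposited 1 intensity per probe set and array, and RMA is the tool that the submitters' processing notes name. Its settings are not given in the sources used here. RMA makes the arrays' distributions alike, which removes any shift shared by most transcripts. The deposited intensity ran from 2.96 to 22122 and was log2-transformed here with no offset. Of 45101 probe sets, 64 controls were left out. The platform annotation gave 34945 probe sets 1 symbol, 932 several and 9160 none; 34741 matched a GRCm38.p6 gene by Entrez identifier, and 0 symbols changed. A gene was represented by its brightest probe set.

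Hi minus Lo was fitted with limma 3.58.1 in R 4.3.3 (2 residual degrees of freedom, 1.98 from the prior, two-sided, no block). The number of arrays limits the precision. The dim limit of an array is the highest value among its 27 probe sets for Bacillus spike-in transcripts. The fit was tested on simulated data. Alternatives covered the block, the moderation, the prior, a dim filter, 2 scalings, an offset, gene averaging, diffSplice and leaving out each array. Named were all members, Myc, the 4 largest differences of the membrane and paralogue lists, and the 2 brightest genes of each marker list. Ly6a, Alas2, Pax5, Vwf, Gp1bb, Ms4a1, Cd8a, Sptbn1, Ank3, Tmod3, Stom, Cd47 and Mpp1 were added after their values were seen. Items of the rule that are not named are not reported here. The members and lists were chosen with earlier results of these data known.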

Additional observations from a re-analysis of the deposited data

How the results depend on the processing

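The median difference of the members, 0.51 on the log2 scale, was 0.38 with only probe sets above the dim limit on 2 or more arrays (which drops Epb42), 0.61 after the arrays were shifted to 1 median, 0.48 with cyclic loess, 0.32 with an offset of 16, 0.55 with probe sets averaged by gene, and 0.44 to 0.58 leaving out single arrays. The count of member genes called, 0, was 3 with that average and 2 with 1 probe set per gene. In both of these the moderation and the adjustment ran over fewer features. The count of disagreeing member probe sets, 0, was 3 with diffSplice. With the replicate numbers as a block 0 member genes and 0 member probe sets were called, against 0 of all genes and probe sets. Ank1, Add2 and Sptb each had an adjusted p of 0.193 by limma in that fit. Replicate 1 minus replicate 2 correlated between Hi and Lo at r = 0.0719 over probe sets. This value cannot tell whether arrays of the same number shared a sort or a batch, and the labels do not say.

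Signs turned for small differences. Leaving out single arrays, Slc4a1 ran from -0.62 to 0.30 and its 1416464_at from -0.83 to 0.33, Tmod1 from -0.011 to 0.11, Sptb 1455226_at from -0.13 to 0.88, Add1 1420953_at from -0.17 to 0.0074 and 1420954_a_at from -0.53 to 0.45, and Dmtn 1438189_s_at from -0.15 to 0.26, or -0.010 with cyclic loess. After the shift to 1 median the 2 Add1 probe sets stood at 0.015 and 0.055.

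List medians moved as follows. The ankyrin complex stood at 1.44 with the dim filter, 0.73 with the offset and 0.79 with averaged probe sets, and the junctional complex at 0.31 after the shift. Other membrane genes stood at 0.24 after the shift and 0.28 averaged (0.084 to 0.21 leaving out single arrays). Paralogues stood at -0.17 with the dim filter, -0.027 after the shift and -0.19 averaged (-0.19 to 0.035). B cell markers stood at -0.34 with the dim filter and 0.0051 after the shift (-0.22 to -0.053), T cell markers ran from -0.67 to 0.25, megakaryocyte markers from 0.055 to 0.58, and stem cell markers stood at -1.41 averaged (-1.78 to -1.40). With the offset, Add2 minus Add1 stood at 1.80. The causes were not tested.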
